A study of Homo sapiens with 6 samples.

Results

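Cyclic AMP is a small messenger made from ATP by adenylyl cyclases and broken down by phosphodiesterases. It activates protein kinase A, which anchoring proteins of the AKAP family hold at particular places in the cell. The kinase in turn phosphorylates transcription factors of the CREB family. In cells of the sympathetic lineage, from which neuroblastoma arises, cyclic AMP is known as a signal for neurite growth and for the expression of neuropeptides. The genes described here are those whose symbol begins with ADCY, PDE or CREB and a digit, or with PRKAC, PRKAR or AKAP, with antisense and pseudogene symbols left out. The table gave 40 such genes among 14779 named genes, each read by a single probe set.

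RNA came from LA1-55n, an established human neuroblastoma line with a doxycycline-inducible hairpin, and was hybridised to 6 Affymetrix Human Gene 2.0 ST arrays. The control group, shGFP, carried a hairpin against GFP, and the other group, shGLDC99, carried one against glycine decarboxylase (GLDC), an enzyme of mitochondrial glycine breakdown. Both groups received doxycycline at 0.5 µg/ml for 7 days, so neither shows cells without the drug or without a hairpin. Each group had 3 arrays, lettered a, b and c, and a single hairpin against GLDC was used. Whether each population was a clone is not given in the sources used here. The labels do not say how the samples of a group were separated, so p-values measure only the spread between these samples. The number of arrays limits the precision.

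All values are intensities read as log2, and every difference is shGLDC99 minus shGFP on that scale. A gene is said to have risen or fallen where the limma adjusted p (Benjamini-Hochberg over all 14779 genes) was under 0.05. The targeted gene GLDC lay between 7.81 and 7.90 in shGFP and between 5.65 and 5.98 in shGLDC99, which leaves 24.9% of the control level (limma adjusted p = 0.00101). Of the 15 neuroblastoma markers listed, 12 were measured, and 10 of these lay above the median gene level of 5.09. STMN2, a neuronal marker, had means of only 2.78 and 2.96, and DBH, the enzyme that makes noradrenaline, had means of 4.45 and 4.59. The summed linear intensity of these markers ran from 2655 to 2813 in shGFP and from 2355 to 2501 in shGLDC99. Single markers moved both ways: the transcription factors ISL1 (-1.09) and GATA3 (-0.48) and MAB21L2 (-0.53) fell, GAP43 and CHGB (0.41 each) rose, and 7 were not past the threshold. Of 9 fibroblast markers 3 were measured (DCN, LUM and THY1), with sums of 64.6 to 68.9 and 72.1 to 79.9. LUM rose among them, by 0.52 from a dim 3.48. The part of these shifts in the results below was not tested. Markers of Schwann cells (4 measured), leukocytes (2) and endothelium (2) all lay below the median gene level, with 0 changed in the limma fit and 0 at an unadjusted p under 0.05. Over all 14779 genes, 1259 changed and 3599 had an unadjusted p under 0.05.

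Of the 40 genes, 4 changed when the hairpin against GLDC took the place of the control hairpin. ADCY8, a cyclase that calcium and calmodulin stimulate, fell to 31.2% of its control level. PDE8B, a phosphodiesterase specific for cyclic AMP, and the transcription factor CREB5 rose 1.91-fold and 1.88-fold, and AKAP6, an anchoring protein, rose to 149.6% of its control level. These 4 genes are 10% of the members, beside 8.52% of all genes tested. The 3 rises are set beside 3.72% of all genes that rose, and the fall beside 4.80% that fell. The share of changed members was therefore near that of the array as a whole. The groups did not overlap for 16 of the 40 members, or 40%, against 30.8% of all genes. An unadjusted p under 0.05 was found for 10 of the 40 members and for 3599 of all 14779 genes. The median difference was 0.00 over the members and -0.01 over all genes, with 20 members above 0 and 20 below. In each of the 6 fits that left out an array, ADCY8, PDE8B, CREB5 and AKAP6 kept their call, the highest adjusted p being 0.0491, for AKAP6. In an exact test, 3 arrays against 3 cannot go below p = 0.1.

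Coverage of the pathway was uneven. All 10 adenylyl cyclases of the RefSeq table and all 7 CREB and CREB3 genes had a named probe set, as did 15 of 16 AKAP genes. Of 26 genes with a PDE symbol 8 were measured, and none of the PDE1 to PDE6 enzymes or PDE10A was among them. The catalytic subunits of protein kinase A (3 PRKAC genes) and its regulatory subunits (4 PRKAR genes) were not analysed here. The values below therefore say nothing of the kinase itself, and the anchoring proteins alone stand for that step.

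**Figure D1:**
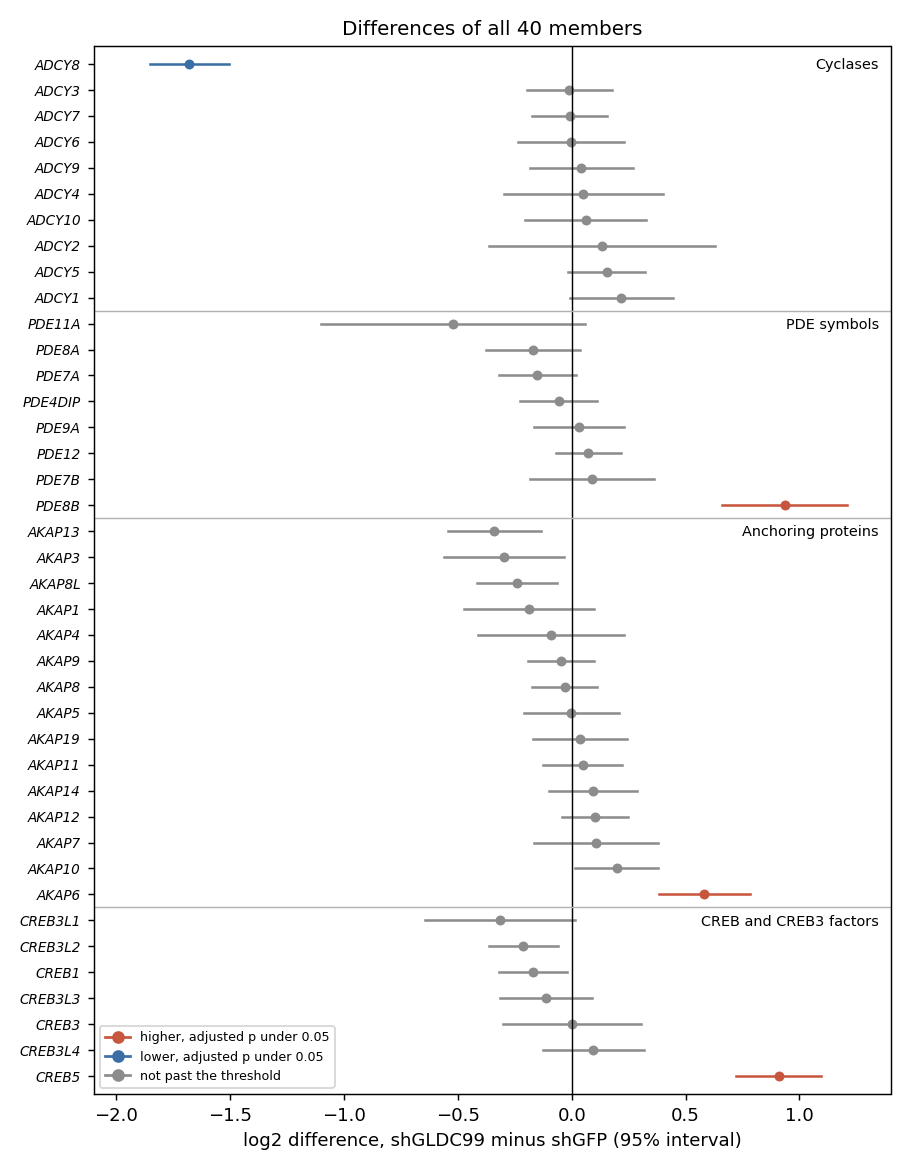
Log2 difference (shGLDC99 minus shGFP) of each of the 40 genes on the x axis, with its 95% interval from the limma fit, in blocks for cyclases, PDE symbols, anchoring proteins and CREB factors. ADCY8 lies far to the left at -1.68, and PDE8B, CREB5 and AKAP6 lie to the right at 0.93, 0.91 and 0.58, while the other 36 genes lie between -0.52 and 0.22.

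The cyclases were compared by their known response to calcium. ADCY1, ADCY3 and ADCY8 are the membrane cyclases that calcium and calmodulin stimulate, and ADCY8 is found mainly in neurons. ADCY8 read 5.71, 5.59 and 5.66 in shGFP arrays a, b and c, and 3.90, 3.96 and 4.06 in the shGLDC99 arrays. Every shGLDC99 array lay far below every shGFP array, and the spread within each group was small (SD 0.061 and 0.084, n = 3 each). The difference was -1.68 ± 0.073 (SE), or 3.20-fold lower, with a 95% interval from -1.85 to -1.51 (limma adjusted p = 0.000965). It ranked 6 by size among all genes tested. The shGLDC99 mean of 3.97 lay below the median gene level and is not shown to exceed background, so the size of the fall is uncertain.

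The other calcium-stimulated cyclases did not show such a fall. ADCY1, also enriched in neurons, read 7.62, 7.74 and 7.76 in shGFP and 8.10, 7.80 and 7.88 in shGLDC99. The shGLDC99 arrays were thus the higher ones, and only just so for array b. Its difference was 0.22 ± 0.095 (SE), with an interval from -0.01 to 0.44 (limma adjusted p = 0.220). ADCY3, the cyclase of olfactory neurons and of primary cilia, read 6.12, 6.22 and 6.11 in shGFP and 6.17, 6.22 and 6.02 in shGLDC99. These groups overlapped, and the difference was -0.01, with an interval from -0.20 to 0.18 (limma adjusted p = 0.952). Of the 3 calcium-stimulated cyclases, 1 therefore fell, and their differences ran from -1.68 to 0.22. That is 33.3%, beside 4.80% of all genes that fell, a share that rests on 1 gene.

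Of the other 7 cyclases, 0 changed in the limma fit and 0 had an unadjusted p under 0.05. Their differences ran from -0.01 to 0.15, with a median of 0.05. Over all genes, 8.52% changed, and 3599 of 14779 had an unadjusted p under 0.05. ADCY5 and ADCY6 are the forms that calcium inhibits. ADCY5 read 5.88, 5.74 and 5.80 in shGFP and 6.04, 5.92 and 5.92 in shGLDC99. The groups did not overlap, but the difference of 0.15 ± 0.071 (SE) was not past the threshold (limma adjusted p = 0.244). ADCY6 differed by 0.00, with an interval from -0.24 to 0.23.

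ADCY2, ADCY4 and ADCY7 are the forms that G protein beta-gamma subunits can stimulate once the alpha subunit is active, and ADCY9 is a widely expressed form with little response to forskolin. ADCY7 differed by -0.01 (interval -0.17 to 0.15) and ADCY9 by 0.04 (interval -0.18 to 0.27), both from levels above the median gene level. ADCY2 and ADCY4 were dim, with shGFP means of 2.77 and 3.54, and their intervals were the widest of the family, at -0.37 to 0.63 and -0.30 to 0.40. The soluble cyclase ADCY10, which bicarbonate activates, was also dim at 2.58 and differed by 0.06. For dim probe sets a change could not be seen where the signal is mostly background, so the small differences of ADCY2, ADCY4 and ADCY10 do not show stable transcripts.

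**Figure D2:**
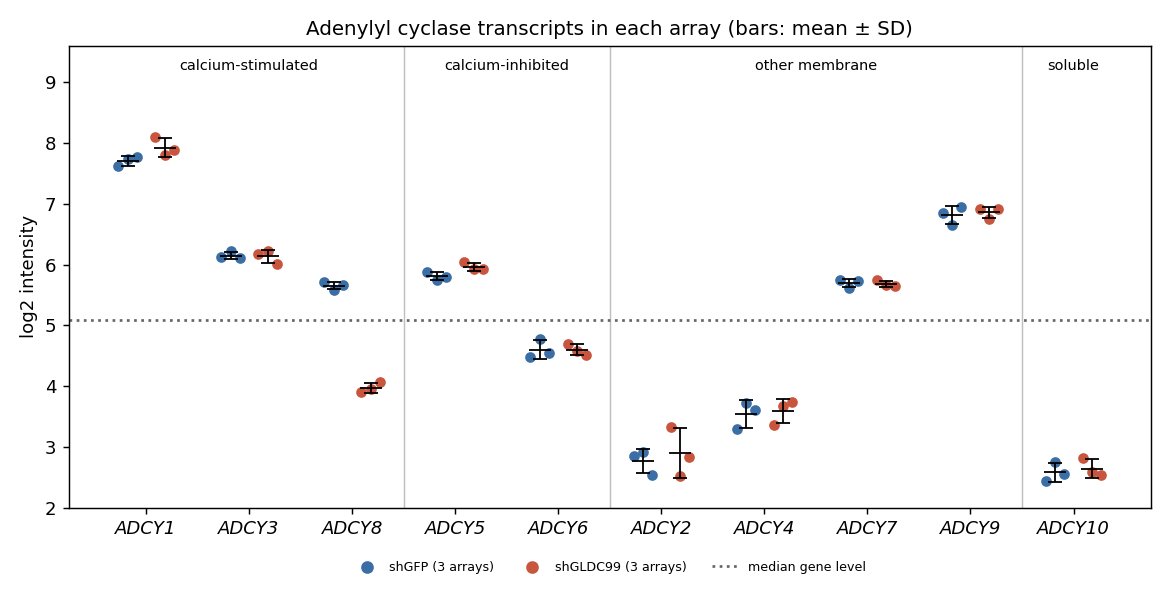
Log2 intensity (y axis) of the 10 adenylyl cyclase probe sets in each of the 6 arrays, with shGFP in blue, shGLDC99 in red and bars for the mean ± SD of 3 arrays. ADCY8 moves from 5.65 to 3.97, across the dotted median gene level of 5.09, while the 2 groups of every other cyclase lie close together, and levels of different probe sets are not comparable.

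Among the 8 genes with a PDE symbol, 1 rose and 0 fell, or 12.5% changed beside 8.52% of all genes. Of the 8, 6 encode phosphodiesterases of cyclic nucleotides. PDE8B belongs to the PDE8 enzymes, which have a very high affinity for cyclic AMP. It read 4.19, 4.15 and 4.38 in shGFP and 5.18, 4.98 and 5.36 in shGLDC99. The lowest shGLDC99 array stood above the highest shGFP array, although the spread was wider than that of ADCY8 (SD 0.127 and 0.188, n = 3 each). The rise was 0.93 ± 0.116 (SE), or 1.91-fold, with an interval from 0.66 to 1.21 (limma adjusted p = 0.00804). Its shGFP mean of 4.24 lay below the median gene level and is not shown to exceed background, so the size of the rise is uncertain. PDE8A, the closest relative, read 5.80, 5.66 and 5.73 in shGFP and 5.71, 5.50 and 5.48 in shGLDC99. These groups overlapped, with a difference of -0.17 and an interval from -0.38 to 0.04 (limma adjusted p = 0.292).

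PDE7A and PDE7B also hydrolyse cyclic AMP alone. PDE7A read 8.12, 7.94 and 8.01 in shGFP and 7.89, 7.86 and 7.86 in shGLDC99. All shGLDC99 arrays were the lower, but the difference of -0.15 ± 0.071 (SE) was not past the threshold (limma adjusted p = 0.250). PDE7B was dim, at 2.83 in shGFP, and differed by 0.09. PDE9A, which hydrolyses cyclic GMP, differed by 0.03 (interval -0.16 to 0.23). PDE11A, which hydrolyses both messengers, had the second largest difference below 0 among the 40 genes, at -0.52. Its shGFP values were 2.34, 3.02 and 2.11 and its shGLDC99 values 2.25, 1.82 and 1.84, so the groups overlapped. The highest of these came from shGFP array b, the SD of 0.472 was the widest of any member, and the interval ran from -1.10 to 0.06 (limma adjusted p = 0.252). PDE12, a mitochondrial enzyme that trims RNA tails, and PDE4DIP, a centrosome and Golgi scaffold, bear PDE symbols without breaking down cyclic nucleotides. They differed by 0.07 and -0.06.

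Among the 15 anchoring proteins 1 rose and 0 fell, or 6.67% changed beside 8.52% of all genes. AKAP6 holds protein kinase A at the nuclear envelope of muscle cells and neurons, together with a phosphodiesterase. It read 6.65, 6.72 and 6.84 in shGFP and 7.33, 7.22 and 7.42 in shGLDC99. All shGLDC99 arrays lay above all shGFP arrays (SD 0.096 and 0.101, n = 3 each). The rise was 0.58 ± 0.084 (SE), to 149.6% of the control level, with an interval from 0.38 to 0.78 (limma adjusted p = 0.0114). Both means, 6.74 and 7.32, lay above the median gene level.

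The remaining 14 anchoring proteins differed by -0.34 to 0.20, with a median of -0.02. AKAP13, which also activates the GTPase RhoA, came nearest to the threshold. It read 6.10, 6.36 and 6.20 in shGFP and 5.95, 5.83 and 5.86 in shGLDC99. All shGLDC99 arrays were lower, and the difference was -0.34 ± 0.086 (SE) (limma adjusted p = 0.0588). It passed the threshold in the fit on requantiled values (adjusted p = 0.0497), without the dimmest 40% of genes (0.0192) and when the prior variance followed intensity (0.0177). AKAP8L, a nuclear matrix protein, differed by -0.24 ± 0.074 (SE) without overlap (limma adjusted p = 0.101). It passed the threshold only in the latter pair of fits, at adjusted p = 0.0367 and 0.0185.

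AKAP3 (-0.30) and AKAP10 (0.20) were likewise without overlap and not past the threshold, with limma adjusted p of 0.157 and 0.172. AKAP3, together with AKAP4, is known from the sperm tail, and both were dim here, the shGFP mean of AKAP3 being 3.34 and the shGFP arrays of AKAP4 running from 2.95 to 3.04. AKAP10 and AKAP1 are anchors found at mitochondria. AKAP1 differed by -0.19, and its lowest value, 6.69, came from shGLDC99 array c against 7.12 and 6.96 in arrays a and b. AKAP12, a scaffold at the plasma membrane that also binds the beta-adrenergic receptor, differed by 0.10, also without overlap. AKAP5, the anchor of postsynaptic sites that binds ADCY8 among other partners, differed by 0.00 (interval -0.21 to 0.21). The centrosomal and Golgi anchor AKAP9 differed by -0.05 without overlap, with an interval from -0.19 to 0.10. AKAP11 differed by 0.05 and AKAP8 by -0.03. Groups without overlap were found for 7 of the 15 anchoring proteins (46.7%), beside 30.8% of all genes. AKAP7 (0.11), AKAP14 (0.09) and AKAP19 (0.04) were dim, with shGFP means under 4.

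At the end of the pathway, CREB5 rose and CREB1 was not past the threshold. CREB1 is the classical factor that protein kinase A phosphorylates, and CREB5 is a relative of ATF2 that binds the same DNA site. CREB5 read 6.23, 6.09 and 6.10 in shGFP and 7.01, 7.16 and 6.98 in shGLDC99. The shGLDC99 arrays all lay higher, with SDs of 0.079 and 0.093 (n = 3 each). The rise was 0.91 ± 0.078 (SE), or 1.88-fold, with an interval from 0.72 to 1.10 (limma adjusted p = 0.00345). Both CREB5 means, 6.14 and 7.05, were above the median gene level.

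CREB1 read 7.90, 7.90 and 7.92 in shGFP and 7.80, 7.68 and 7.73 in shGLDC99. All shGLDC99 arrays were lower, and the difference was -0.17 ± 0.063 (SE), or 88.9% of the control level (limma adjusted p = 0.155). It passed the threshold only when the prior variance followed intensity (adjusted p = 0.0327). The interval of the CREB1 difference, -0.32 to -0.02, does not reach that of CREB5.

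The 5 CREB3 genes encode factors held in the endoplasmic reticulum membrane until they are cut free, and they do not take part in signalling by protein kinase A in the way CREB1 does. In the limma fit 0 of the 5 changed, beside 8.52% of all genes. An unadjusted p under 0.05, which 3599 of all 14779 genes had, was found for 1 of the 5, CREB3L2. It read 5.99, 6.05 and 6.08 in shGFP and 5.87, 5.82 and 5.79 in shGLDC99. The groups did not overlap, with a difference of -0.21 ± 0.063 (SE) (limma adjusted p = 0.0901), and the gene passed the threshold without the dimmest 40% of genes (adjusted p = 0.0287). CREB3L1 differed by -0.31 from a dim 3.83, with overlap and its lowest value, 3.22, in shGLDC99 array c. CREB3, CREB3L3 and CREB3L4 differed by 0.00, -0.11 and 0.10.

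**Figure D3:**
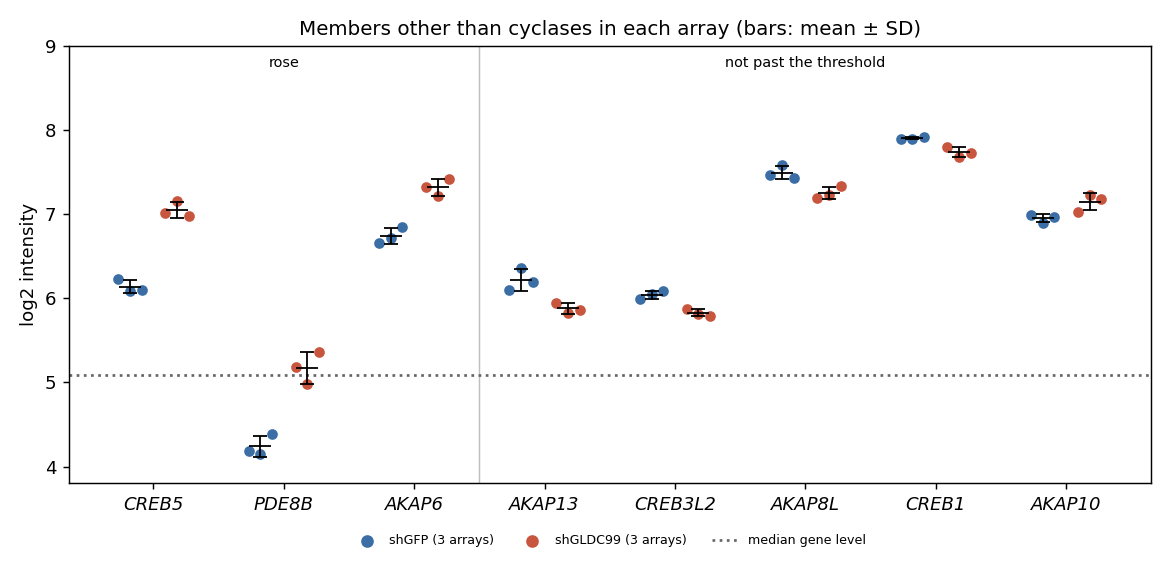
Log2 intensity (y axis) in each of the 6 arrays for the 3 other members that rose and for 5 of the 6 members that had an unadjusted p under 0.05 but were not past the threshold (the dim AKAP3 is left out), with shGFP in blue, shGLDC99 in red and bars for the mean ± SD of 3 arrays. CREB5, PDE8B and AKAP6 rise by 0.58 to 0.93, whereas AKAP13, CREB3L2, AKAP8L, CREB1 and AKAP10 differ by 0.34 or less.

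CREB factors bind the cyclic AMP response element, TGACGTCA, and less firmly its core, TGACG. Both were sought on both strands in the 250 bases before the gene start of RefSeq's promoter table (GRCh38.p14), where 33 of the 40 members had an entry; each full element also holds the core. The full element stood in 2 of these 33 (6.06%), PDE7B and CREB3L2, against 2.34% of the 10715 promoters of genes tested here and 1.77% of all 27305. The core stood in 10 of 33 (30.3%), against 26.2% of those tested and 21.7% of all. The 60 bases around each full element are shown first, 5′ to 3′ on the gene's strand, with the element in capitals.

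PDE7B, chr6:135851520-135851579 (+ strand): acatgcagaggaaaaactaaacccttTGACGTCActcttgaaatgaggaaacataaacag

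CREB3L2, chr7:138002232-138002291 (- strand): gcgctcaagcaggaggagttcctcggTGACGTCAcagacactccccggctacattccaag

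The 250 bases before the start of the 3 genes that rose are shown next. No motif other than the full element and its core was sought in these bases. They hold neither the full element nor its core, so no letter is in capitals. ADCY8, the gene that fell, was not among the members found to hold either, and its sequence is not shown here. Whether ADCY8 was among the members with an entry is not given here, so its lack of both is not shown. The table gives only 1 start per gene, and other starts were not examined.

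PDE8B, chr5:77086465-77086714 (+ strand): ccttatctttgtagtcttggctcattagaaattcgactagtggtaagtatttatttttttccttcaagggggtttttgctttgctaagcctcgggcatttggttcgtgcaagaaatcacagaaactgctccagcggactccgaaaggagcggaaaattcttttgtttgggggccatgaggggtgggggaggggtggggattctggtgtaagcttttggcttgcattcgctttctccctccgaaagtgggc

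CREB5, chr7:28412268-28412517 (+ strand): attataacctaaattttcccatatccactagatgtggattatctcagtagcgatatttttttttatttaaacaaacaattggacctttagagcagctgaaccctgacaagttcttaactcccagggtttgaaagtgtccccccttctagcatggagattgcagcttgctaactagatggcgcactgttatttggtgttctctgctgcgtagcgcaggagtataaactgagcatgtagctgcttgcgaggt

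AKAP6, chr14:32329048-32329297 (+ strand): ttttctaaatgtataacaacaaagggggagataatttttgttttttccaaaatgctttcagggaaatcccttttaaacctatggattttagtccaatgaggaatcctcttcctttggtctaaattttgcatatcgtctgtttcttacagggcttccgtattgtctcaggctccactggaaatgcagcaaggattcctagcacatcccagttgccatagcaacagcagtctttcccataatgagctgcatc

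Around these genes, 8 lists of other genes of the pathway held 186 genes, of which 111 were measured. The shares of these lists that changed are to be read beside the 8.52% of all genes that did (3.72% higher, 4.80% lower), and with so few genes a list each call moves its share by much. Among receptors that raise cyclic AMP through the G protein Gs, 2 of 25 measured rose and 0 fell, or 8%, which is near that background. ADRB1, the beta-1 adrenergic receptor, rose by 0.43 from 4.84 (limma adjusted p = 0.0317), and ADCYAP1R1, the receptor of the neuropeptide PACAP, rose by 0.30 from 7.08 (limma adjusted p = 0.0345). Neither call was firm. ADCYAP1R1 lost it without any 1 of the 6 arrays (adjusted p = 0.0799 to 0.105). ADRB1 lost it without shGFP array a or c or any shGLDC99 array (0.0784 to 0.0998). The largest difference of this list was that of the melanocortin receptor MC4R, at -0.53 from a dim 3.17, without overlap and not past the threshold (limma adjusted p = 0.0517). With 1 array left out, the list gave 0 or 1 rise and 0 or 1 fall. Of the receptors that lower cyclic AMP through Gi, 1 of 18 rose and 0 fell, or 5.56%. This was the cannabinoid receptor CNR1, by 0.51 from a dim 3.51 (limma adjusted p = 0.00975), or by 1.11 when its probe sets were averaged. With the replicate letter as a block its adjusted p was 0.0598. GNAS, which encodes the Gs alpha subunit, was the only G protein subunit measured, and differed by -0.07 (limma adjusted p = 0.532).

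The calcium side beside ADCY8 held 10 measured genes, which were calmodulin kinases, calcineurin regulators and the calmodulin-binding PCP4. Of these 1 rose and 0 fell, or 10%. RCAN2, an inhibitor of the calmodulin-dependent phosphatase calcineurin, read 5.79, 6.07 and 5.98 in shGFP and 7.30, 7.04 and 7.39 in shGLDC99. It rose by 1.29 ± 0.117 (SE), or 2.45-fold (limma adjusted p = 0.00378). The related RCAN1 differed by -0.33, CAMK1 by -0.26 and CAMK2D by -0.25, with limma adjusted p between 0.0831 and 0.0875. Calmodulin itself was not analysed here.

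Of 13 other measured effectors of cyclic nucleotides, 1 rose and 1 fell, or 15.4% beside 8.52% of all genes. These were CNG, HCN, POPDC and RAPGEF genes, and none of the kinase inhibitors of the same list was measured. CNGB1, a subunit of cyclic nucleotide-gated channels, rose by 0.66 ± 0.075 (SE), from 5.88, 5.81 and 5.77 to 6.55, 6.53 and 6.38 (limma adjusted p = 0.00657). POPDC3, a Popeye protein of a family that binds cyclic AMP, fell by 0.55 ± 0.063 (SE), from 7.67, 7.64 and 7.73 to 7.11, 7.11 and 7.18 (limma adjusted p = 0.00701). The arrays of the groups stood apart for both genes. Of 5 measured genes of cyclic GMP signalling 0 changed in the limma fit and 1 had an unadjusted p under 0.05, the natriuretic peptide receptor NPR3 (0.24). Such a p was found for 3599 of all 14779 genes.

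Among 12 cofactors and relatives of CREB, 1 rose and 1 fell, or 16.7% beside 8.52% of all genes. CREBRF, which promotes the breakdown of the CREB3 protein, rose by 0.70 ± 0.106 (SE) (limma adjusted p = 0.0133), a call lost without shGLDC99 array c (adjusted p = 0.0508). CREBZF, a leucine zipper cofactor, fell by 0.32 (limma adjusted p = 0.0452) and lost that call without any 1 of the 6 arrays (adjusted p = 0.0869 to 0.123), on requantiling, on centring and with all probe sets in the fit.

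Of 29 measured genes known as targets of CREB, 3 rose and 3 fell, or 20.7% beside 8.52% of all genes, with a list median of 0.05 beside -0.01 over all genes. The groups did not overlap for 9 of the 29, or 31%, which is near the 30.8% of all genes. An unadjusted p under 0.05 was found for 8 of the 29 and for 3599 of all 14779 genes. The granin SCG2 rose by 1.43 (limma adjusted p = 0.000965), the secreted precursor VGF by 0.57 (0.0207) and the granin CHGB by 0.41 (0.0145). The granin CHGA (0.09) and the neuropeptide genes NPY (0.06), GAL (0.06), PENK (0.08), SST (0.03), NTS (0.05), ADCYAP1 (0.06), VIP (-0.09), PDYN (-0.12) and CARTPT (-0.15) of the same list were not past the threshold. The same held for TH (0.26), with overlap. CRH (0.22, from a dim 2.34) and BDNF (-0.13, from a dim 3.64) were without overlap and not past the threshold. The falls were those of the early response factors EGR1 (-0.71, limma adjusted p = 0.00762) and FOSB (-0.43, 0.0450) and of cyclin A2, CCNA2 (-0.44, 0.0116). FOS (-0.27), DUSP1 (0.13), PER1 (-0.06), CREM (-0.05) and SIK1 (-0.004) of the same list were not past the threshold. SCG2 and EGR1 kept their calls without any 1 array. CCNA2 lost its call without shGFP array c (0.0512), CHGB without any shGFP array or shGLDC99 array a (0.0505 to 0.0573), VGF without array a or b of either group (0.0606 to 0.0693), and FOSB without shGFP array a or c or any shGLDC99 array (0.0735 to 0.131). Leaving out 1 array thus gave 1 to 3 rises and 1 to 3 falls in this list.

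**Figure D4:**
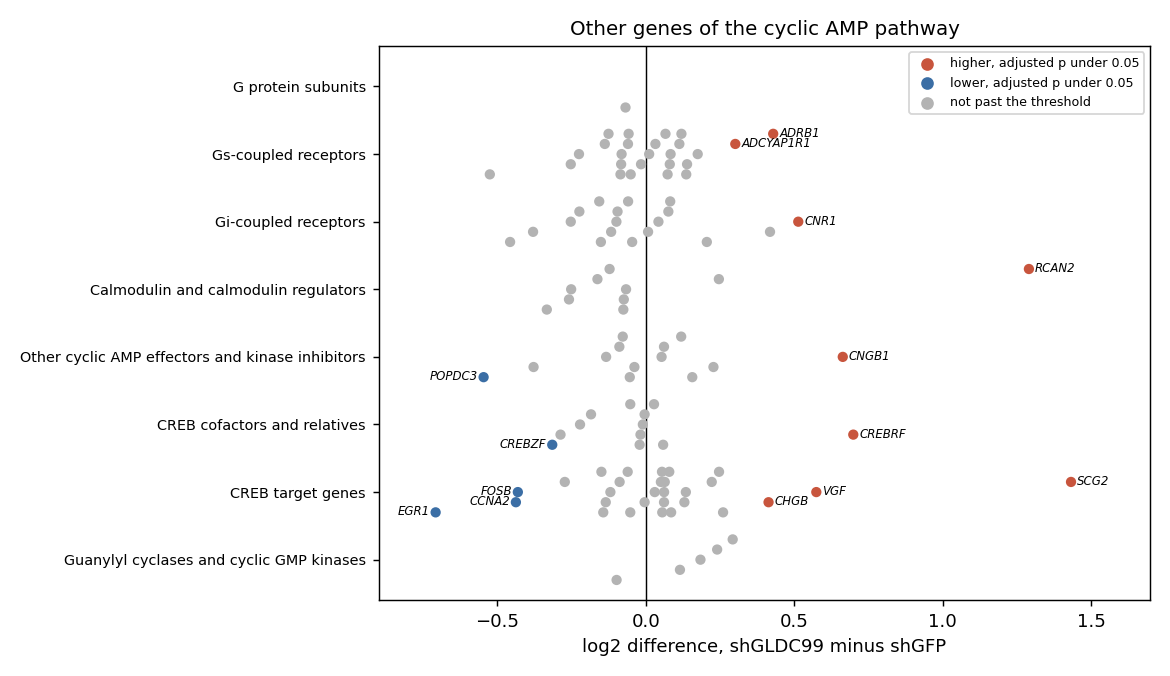
Log2 difference (shGLDC99 minus shGFP, x axis) of the measured genes in 8 lists of other cyclic AMP and cyclic GMP pathway genes, 1 dot per gene, with changed genes coloured and named. Most dots lie near 0, SCG2 (1.43) and RCAN2 (1.29) lie farthest to the right and EGR1 (-0.71) farthest to the left.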

How the data were processed

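Gene expression in 3 shGFP and 3 shGLDC99 arrays was taken from the deposited table of 31135 probe sets. The authors used Partek, per the submitters' processing notes (version not given). How background was removed, arrays were scaled and probes were combined is not given in the sources used here. The deposited values were read as log2 intensity, since their maximum of 13.28 is above the 11.09 that natural logs of a scanner reading could reach. Array medians lay between 4.28 and 4.33, and nothing further was normalized.

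GEO's platform annotation named 15098 probe sets, 0 with several genes and 16037 without a name. All 15098 matched RefSeq by Entrez ID, giving 14779 genes, each represented by its brightest probe set over the 6 arrays. Arrays of a group correlated at 0.993 to 0.994 and those of different groups at 0.988 to 0.990 (Pearson's r across probe sets). Groups were compared in R 4.3.3 by the moderated test of limma 3.58.1 (two-sided, Benjamini-Hochberg over all genes, no covariates, no filter on dim genes). Intervals are 95% intervals of that model. The fit was checked on simulated data. Plots used matplotlib 3.10.9.

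Members and lists were chosen with earlier results of these data known. Every member was accounted for, and every changed gene of each list was to be named, up to 4 with the smallest adjusted p; the fifth and sixth CREB targets (VGF and FOSB) and the genes of lists named without a change were added after their values were seen. Alternatives were requantiling, median centring, leaving out the dimmest 40% of genes, averaging probe sets, the replicate letter as a block, an intensity trend, array weights, all probe sets in the fit, and leaving out each array.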

Additional observations from a re-analysis of the deposited data

How the results depend on the processing

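ADCY8, PDE8B, CREB5 and AKAP6 kept their direction and call in all 14 alternative fits. Rises among the members numbered 3 in each, and falls numbered 1 except on requantiling (2), without the dimmest 40% of genes (4 of 29 members left) and when the prior variance followed intensity (4). Over all genes, 550 rose and 709 fell; these counts were 969 and 1252 without the dimmest 40% (fewer genes tested), and 1088 and 1350 with that variance trend. With all probe sets in the fit 361 of these genes rose. Leaving out 1 array (fewer samples) gave 207 to 240 rises and 238 to 327 falls.

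The letters were not taken to pair the arrays: deviations of same-lettered arrays from their group means correlated at -0.01 for a, 0.02 for b and 0.00 for c. With the replicate block, 103 genes rose and 126 fell, while ADCY8 had an adjusted p of 0.0273, PDE8B 0.0332, CREB5 0.0354 and AKAP6 0.0489. Beyond the losses on leaving out single arrays given above, the calls of ADRB1, ADCYAP1R1, CREBZF and FOSB were also lost with all probe sets in the fit. The calls of 9 of the 14 changed genes of the other pathway lists were lost with the replicate block (CREBRF, CREBZF, CCNA2, CHGB, VGF, FOSB, CNR1, ADRB1 and ADCYAP1R1). The cause of these shifts was not tested. Signal over background could not be judged, since no detection values were used, which limits what dim probe sets can show.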
